A study of Mus musculus with 31 samples.

Results

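Parental and glucocorticoid receptor knockout (GRKO) cells of the mouse melanoma line 20967 were compared in culture with vehicle (DMSO). The comparison took the 3 control-treated GRKO cultures and the 3 control-treated parental cultures by their labels, 6 of the 31 RNA libraries of the series. The series asked how glucocorticoids act on tumor cells and on immunity to melanoma, in these cultures and in tumors grown from parental and GRKO cells. RNA was read as 3′ tags (QuantSeq libraries on an Illumina NovaSeq), so each gene was counted near its polyadenylation site. Every culture carried the alleles of the line, Nras+LSL-G12D;Tyr::CreERT2+/o on a C57BL/6 background, and the labels gave parental and GRKO cells the same genotype entry. In the study, GRKO cells were made with a Cas9 ribonucleoprotein against Nr3c1 and plated as single cells, and clones were checked for the receptor protein by Western blot. The library names of the GRKO cultures carry 3-22, read here as the clone, and the labels of the tumors name no clone. The culture comparison was thus 1 clone against the parental line, and the receptor and other features of the clone's founder cell cannot be told apart. 2 parental and 3 GRKO cultures with the glucocorticoid clobetasol propionate (GC) and 5 control tumors of each genotype, whole tumors from intradermal implants in wild type C57BL/6 mice, are used further on for comparison. The labels gave the GC dose as 10 µM and the library names gave 1 µM. All culture library names carried the same date and named no batch. They also carried a letter, A, B or C, that followed the replicate number in each group. What the letter stands for is not stated. The labels number the cultures and do not say whether each was grown and treated apart, so the p-values measure the spread between these samples.

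The 3 parental libraries held 15121571, 16743983 and 16648617 counts and the 3 GRKO libraries held 18780474, 20120020 and 18633794 counts. Levels are given in CPM, counts scaled to a common library size with TMM factors, in the order of the replicate numbers, with n = 3 cultures per group. A gene with 3 counts stood at 0.149 to 0.198 CPM before scaling, the floor used here. Where at least 2 of the 3 cultures of a group were at or under it, a bound or a ratio of pooled counts is given in place of a fold change. Intervals and floors cover counting error only. Differences are log2 fold changes of GRKO over parental with their SE, and a differentially expressed gene (DEG) had an edgeR adjusted p under 0.05 and at least a 1.5-fold change. The exact permutation test of 3 against 3 cultures cannot give a p below 0.1. All 108 DEGs named in the analysis stood at that smallest value, which groups without overlap always give. Many of them were chosen among DEGs with separate groups, so this is not further evidence.

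The glucocorticoid receptor is a transcription factor that is held by chaperones in the cytoplasm until hormone binds, and then acts on chromatin, where it induces some genes and dampens inflammatory ones. Melanoma cells move between a pigmented melanocytic state that rests on the factor MITF and dedifferentiated states with mesenchymal, matrix-forming or neural crest features and high AXL. Cells in these states differ in antigen presentation, secreted factors and metabolism as well as in pigment genes.

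Parental culture 2 stood apart from the other 2 parental cultures. Of 7482 genes with at least 10 CPM in the parental group, 386 lay over 2-fold outside the range of the other 2 cultures in parental culture 2, and 0 did so in parental culture 1 or 3. Among the GRKO cultures the counts were 0, 70 and 19 of 7580 genes. The mean chi-square per gene (near 1 where only counting error separates 2 libraries) between parental cultures 1 and 3 was 8.26, against 65.4 and 77.3 for the comparisons with culture 2, and it was 20.8 to 46.5 among the GRKO cultures. Counts without parental culture 2 are therefore given beside each of the 4 gene families. Of the 107 named DEGs that could also be fitted without it, 107 kept their sign and 99 were still DEGs.

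The clone differed from its parent mainly by genes it expressed less. Many collagen chains, interferon-stimulated genes and sterol enzymes, some antigen presentation genes and 4 of the few melanocytic genes detected were lower, while a smaller set that included Lox, Itga7 and Cd24a was higher. Of 12525 genes tested, 1030 (8.22%) were DEGs, 273 (2.18%) higher and 757 (6.04%) lower in the clone. The median log2 fold change was 1.05 over the higher DEGs, -1.75 over the lower DEGs and 0.01 over all genes tested. At an unadjusted p under 0.05 there were 3037 genes. The 6 cultures did not overlap between groups in 4079 genes (32.6% of those tested, where chance gives 10%) and in 1029 of the 1030 DEGs. In 68 of the lower DEGs the clone held 0 counts in each of its 3 cultures, and 5 of the higher DEGs had 0 counts in each parental culture. The count of DEGs was 744 without parental culture 2, 647 without GRKO culture 1, 594 without GRKO culture 2 and 682 without parental culture 1. Over the lineage, matrix, immune and metabolic lists together, 722 of 957 genes were tested, of which 30 were higher and 149 lower (24.8% DEGs, median -0.25). Shares of DEGs per list stand beside 8.22% over all genes tested. The lists were chosen with earlier results of these data known, so a share above 8.22% is not independent evidence. Without parental culture 2 the higher and lower genes of these lists numbered 25 and 122.

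**Figure D1:**
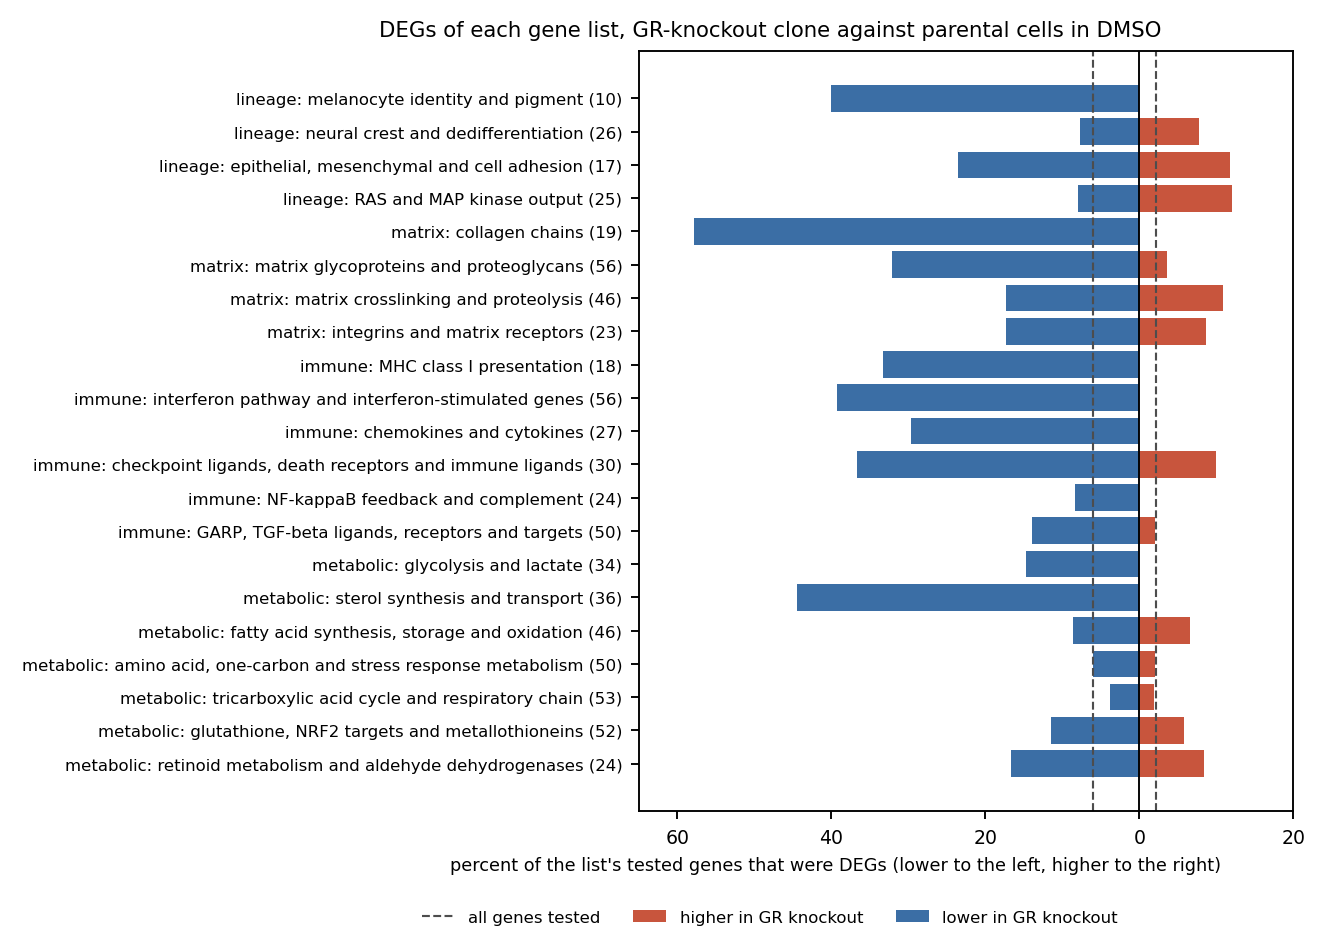
Bars give the percent of each list's tested genes that were DEGs higher (right) or lower (left) in GRKO than in parental cultures with DMSO, and dashed lines mark the same percents over all genes tested (2.18 and 6.04). Among the lineage, matrix, immune and metabolic lists, the bars for lower genes reach furthest in collagen chains, sterol synthesis, melanocyte and interferon lists. The lists were chosen with earlier results of these data known, so bars beyond the dashed lines are not independent evidence.

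The targeted gene, Nr3c1 (ENSMUSG00000024431, GRCm38 chromosome 18, 39410545 to 39519421), encodes the glucocorticoid receptor and stood at 33.2, 29.99 and 35.6 CPM in the parental cultures and 24.8, 21.002 and 16.4 CPM in the clone. Each GRKO culture was below each parental one, but the difference did not pass (log2 fold change -0.67 ± 0.22 (SE), adjusted p = 0.0840), and only DESeq2 called it (adjusted p = 0.0390, range over all alternatives 0.0390 to 0.212). In the other settings used below it was a lower DEG, with GC (log2 fold change -0.95, adjusted p = 0.0384) and in control tumors (-1.02, adjusted p = 0.0313). Tags near the 3′ end need not cover the edit, so this level does not measure it. Of 16 receptor partners (chaperones and coregulators), 13 were tested, 0 were higher and 1 was lower (7.69% DEGs, against 8.22% of all genes tested, median -0.09). That 1 was Fkbp4, a cochaperone of the receptor, at 715, 864 and 638 CPM in the parental cultures and 456, 408 and 516 CPM in the clone. Its groups did not overlap (log2 fold change -0.68 ± 0.16 (SE), adjusted p = 0.0204), and it lost its call without GRKO culture 1 or 2 or parental culture 1 or 2 (highest adjusted p = 0.0990) and at a fold limit of 2. DESeq2 called 2 of the partners.

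Textbook glucocorticoid-induced genes in DMSO had 1 higher and 4 lower of 18 tested among 26 (27.8% DEGs, against 8.22% of all genes tested, median 0.05). Tsc22d3, the leucine zipper gene GILZ and a classical receptor target, stood at 14.5, 10.6 and 15.4 CPM in the parental cultures and 15.9, 18.2 and 19.5 CPM in the clone. Per1, a clock gene with receptor sites, had 7.09, 3.88 and 5.46 CPM in the parental cultures and 7.53, 6.63 and 4.47 CPM in the clone. The groups overlapped for Per1 and lay just apart for Tsc22d3, and neither gene passed (adjusted p = 0.677 for Per1 and 0.194 for Tsc22d3). Fkbp5 and Mt1 did not pass either, with log2 fold changes of 0.10 and 0.22 (adjusted p = 0.892 and 0.457). Mt2, a metallothionein that binds zinc and copper, was higher in all 3 GRKO cultures, 205, 175 and 241 CPM in the parental cultures and 339.8, 375 and 324 CPM in the clone (log2 fold change 0.74 ± 0.15 (SE), adjusted p = 0.00989). Cebpb, a bZIP transcription factor, fell from 18.4, 14.8 and 13.8 CPM to 7.63, 7.59 and 5.71 CPM (log2 fold change -1.17 ± 0.22 (SE), adjusted p = 0.00608). Both Cebpd, a related factor (log2 fold change -0.95), and Rgs2, a brake on G-protein signaling (-0.75), were lower too. Cebpd lost its call without GRKO culture 1 or 3 (highest adjusted p = 0.0594) and Rgs2 without GRKO culture 1, 2 or 3 or parental culture 1 or 3 (highest adjusted p = 0.145). The list's count moved from 5 to 2 without GRKO culture 1 or 3 and to 1 at a fold limit of 2. It was 3 without GRKO culture 2 or parental culture 1, and with the replicate number as a block.

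Among 25 genes that the study chose as GC-responsive on these libraries, 21 were tested, 1 was higher and 8 were lower in DMSO (42.9% DEGs, median -0.17), which is not independent evidence of a direction. Ceruloplasmin (Cp), a copper-binding ferroxidase, stood at 26.4, 29.3 and 29.4 CPM in the parental cultures and 1.87, 1.38 and 1.08 CPM in the clone (log2 fold change -4.29 ± 0.34 (SE), adjusted p = 2.34e-05). Ctla2a, a cysteine protease inhibitor, stood at 16.9, 21.5 and 18.3 CPM in the parental cultures and 1.19, 0.525 and 1.51 CPM in the clone (log2 fold change -4.14 ± 0.31 (SE), adjusted p = 1.30e-05). Parental cultures exceeded GRKO cultures more than 10-fold for both genes even without added GC. Ccdc3, a secreted coiled-coil protein, had 22, 14 and 17 counts in the parental cultures and 0, 0 and 0 counts in the clone and was at least 7.15-fold lower against the floor of 3 counts per library (adjusted p = 0.00166).

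Few melanocytic genes were expressed in either group, and 4 of the 10 tested were lower in the clone. Sox10, Kit, Tyr, Tyrp1, Dct and Mlana, which define melanocytes and pigment cells, had 0 counts in all 6 libraries, and Pmel had 8, 0 and 3 counts in the parental cultures and 0, 2 and 3 counts in the clone. By these markers neither group was a pigmented melanocyte culture. Mitf, the master factor of the melanocyte lineage, stood at 8.72, 10.04 and 11.7 CPM in the parental cultures and 4.78, 3.01 and 4.09 CPM in the clone. All GRKO cultures lay below all parental ones (log2 fold change -1.36 ± 0.23 (SE), adjusted p = 0.00380). Tfap2a, a factor that works with MITF at pigment genes, had 38, 21 and 27 counts in the parental cultures and 0, 0 and 0 counts in the clone, and S100b, a calcium-binding melanoma marker, had 14, 24 and 14 counts in the parental cultures and 0, 0 and 0 counts in the clone. Both were at 0 throughout the clone, at least 11.6-fold and at least 6.97-fold lower (adjusted p = 0.00378 and 0.0106). Mlph, which tethers melanosomes to their motor, fell from 7.68, 11.02 and 8.29 CPM to 1.04, 1.77 and 1.99 CPM (log2 fold change -2.49 ± 0.35 (SE), adjusted p = 0.00113). These 4 were the DEGs among 10 tested of 30 melanocyte genes (40.0%, 0 higher, median -1.58), and the count moved from 4 to 2 with genes of at least 1 CPM on average.

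Of the neural crest and dedifferentiation genes 15.4% were DEGs. Axl, the receptor tyrosine kinase of dedifferentiated melanoma, stood at 1052, 1219 and 991 CPM in the parental cultures and 1034, 885 and 1170.0 CPM in the clone. The groups overlapped and the difference did not pass (log2 fold change -0.08 ± 0.18 (SE), adjusted p = 0.814). Ngfr, the neural crest receptor, had counts in parental culture 2 alone (7) and was not tested. Of 33 neural crest and dedifferentiation genes, 26 were tested, 2 were higher and 2 lower (median -0.29, with 17 below 0). Sox9, a crest and cartilage factor, stood at 387, 263 and 356 CPM in the parental cultures and 148, 119 and 145 CPM in the clone, with no overlap (log2 fold change -1.29 ± 0.16 (SE), adjusted p = 0.000515). Gfra2, a neurturin receptor, fell from 8.33, 10.96 and 5.64 CPM to 1.97, 1.58 and 2.32 CPM (log2 fold change -2.09 ± 0.31 (SE), adjusted p = 0.00173). Aqp1, a water channel, was higher at 19.5, 30.3 and 13.8 CPM in the parental cultures and 50.2, 43.7 and 48.02 CPM in the clone (log2 fold change 1.16 ± 0.29 (SE), adjusted p = 0.0274), and lost its call without GRKO culture 1, 2 or 3 or parental culture 1 or 3 (highest adjusted p = 0.106). The list's count moved from 4 to 2 without GRKO culture 2 or parental culture 1.

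Adhesion and contractile genes went both ways, 2 higher and 4 lower of 17 tested among 33 (35.3% DEGs, median -0.02). Cdh11, a mesenchymal cadherin, had 48, 35 and 45 counts in the parental cultures and 0, 1 and 0 counts in the clone, a parental to GRKO ratio of 155 (95% counting interval 27.3 to 6158) with adjusted p = 0.000989. Myl9, a myosin light chain of smooth muscle type, stood at 23.9, 24.8 and 19.5 CPM in the parental cultures and 5.87, 3.198 and 4.47 CPM in the clone (log2 fold change -2.33 ± 0.26 (SE), adjusted p = 0.000275). Tagln, an actin-binding protein of the same program, moved the other way, 22.3, 46.1 and 33.6 CPM in the parental cultures and 74.1, 63.4 and 83.8 CPM in the clone. Parental cultures were the lower group for Tagln and the higher group for Myl9 with no overlap in either, but Tagln (log2 fold change 1.12 ± 0.24 (SE), adjusted p = 0.0134) lost its call without GRKO culture 3 (highest adjusted p = 0.0532). Cldn1, a tight junction claudin, was higher in the clone (1.37, 0.185 and 0.529 CPM in the parental cultures and 3.895, 5.97 and 3.23 CPM in the clone, log2 fold change 2.66 ± 0.62 (SE), adjusted p = 0.0208) and lost its call without GRKO culture 1 or 2 or parental culture 2 or 3 (highest adjusted p = 0.0854). N-cadherin (Cdh2), the mesenchymal cadherin of melanoma, did not pass at 64.7, 56.4 and 63.3 CPM in the parental cultures and 87.4, 97.2 and 76.99 CPM in the clone (log2 fold change 0.50 ± 0.17 (SE), adjusted p = 0.0895), and E-cadherin (Cdh1) had 3 counts in GRKO culture 2 and 0 in the other libraries.

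The line carries a mutant Nras allele, and 25 output genes of RAS and MAP kinase had 3 higher and 2 lower (25 tested, median 0.01). Epha4, an ephrin receptor, rose from 13.3, 12.99 and 13.5 CPM to 34.5, 30.3 and 35.8 CPM (log2 fold change 1.34 ± 0.14 (SE), adjusted p = 0.000166). Etv1, an ETS factor downstream of MAP kinase, fell from 19.6, 19.6 and 20.6 CPM to 8.21, 10.6 and 9.21 CPM (log2 fold change -1.09 ± 0.16 (SE), adjusted p = 0.00143). The groups lay well apart for both. This list's count moved from 5 to 3 without GRKO culture 1 and to 2 at a fold limit of 2. Over the 4 lineage lists, 7 genes were higher and 12 lower of 78 tested (24.4%, median -0.23), and 6 and 13 without parental culture 2.

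Matrix genes had 34.7% DEGs, and every collagen DEG was lower. Of 44 collagen chains 19 were tested, and 11 were lower and 0 higher (57.9% DEGs, median -1.12), with 14 below 0. Col1a1, a chain of the main fibrillar collagen, stood at 45.9, 26.1 and 27.7 CPM in the parental cultures and 1.61, 2.29 and 1.13 CPM in the clone. The lowest parental culture was over 10 times the highest GRKO culture (log2 fold change -4.30 ± 0.45 (SE), adjusted p = 0.000179). Col3a1 and Col5a1, chains of its companion fibrils, fell with log2 fold changes of -1.37 and -1.08 (adjusted p = 0.000934 and 0.000567). Col6a1, Col6a2 and Col6a3, chains of microfibrillar collagen VI, fell together. Col6a1 stood at 78.5, 74.5 and 59.6 CPM in the parental cultures and 23.996, 22.5 and 15.1 CPM in the clone, and Col6a2 at 69.5, 85.9 and 58.9 CPM in the parental cultures and 9.09, 4.58 and 8.78 CPM in the clone. Col6a3 had 44.6, 17.5 and 48.1 CPM in the parental cultures and 1.14, 2.63 and 1.35 CPM in the clone, with parental culture 2 below the other 2. No GRKO culture reached a parental one for any of these chains (log2 fold changes -1.79, -3.26 and -4.42, adjusted p = 0.000310, 3.03e-05 and 0.00126). Col11a1, a fibril chain of cartilage and tumor stroma, had 256, 396 and 303 counts in the parental cultures and 0, 2 and 0 counts in the clone, a parental to GRKO ratio of 577 (95% counting interval 159 to 4773) with adjusted p = 1.06e-05.

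Glycoproteins and proteoglycans gave 2 higher and 18 lower of 56 tested among 78 (35.7% DEGs, median -0.28). Mgp, a matrix protein that inhibits calcification, stood at 205, 102 and 199.6 CPM in the parental cultures and 1.51, 2.39 and 1.56 CPM in the clone (log2 fold change -6.53 ± 0.46 (SE), adjusted p = 1.01e-05). Thbs2, a matricellular thrombospondin, had 112, 70 and 105 counts in the parental cultures and 0, 0 and 0 counts in the clone, and Fbln1, a basement membrane fibulin, had 56, 61 and 64 counts in the parental cultures and 0, 0 and 0 counts in the clone. Neither was seen in the clone, where they were at least 38.6-fold and at least 24.2-fold lower (adjusted p = 0.000275 and 0.000642). Decorin (Dcn), which binds collagen fibrils and TGF-β, was at least 9.47-fold lower (31, 19 and 20 counts in the parental cultures and 0, 0 and 0 counts in the clone, adjusted p = 0.00746). In contrast Thbs1, a thrombospondin that can activate latent TGF-β, rose from 72.7, 115 and 93.1 CPM to 179, 194 and 182 CPM (log2 fold change 0.99 ± 0.17 (SE), adjusted p = 0.00407). The other higher gene was Fbln2 (162, 288 and 180.2 CPM in the parental cultures and 447, 379.8 and 389 CPM in the clone, log2 fold change 0.95 ± 0.20 (SE), adjusted p = 0.0111), which lost its call without GRKO culture 1 or parental culture 1 (highest adjusted p = 0.0553). Fibronectin (Fn1) overlapped between groups, 604, 418 and 447 CPM in the parental cultures and 358, 461 and 378 CPM in the clone, and did not pass (log2 fold change -0.30 ± 0.17 (SE), adjusted p = 0.299). This count moved from 20 to 10 without parental culture 1 and to 11 without GRKO culture 1.

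Enzymes that crosslink or cut matrix split between directions, 5 higher and 8 lower of 46 tested among 58 (28.3% DEGs, median -0.14). Their count moved from 13 to 8 at a fold limit of 2. Mmp2, a gelatinase, stood at 154, 144 and 137 CPM in the parental cultures and 5.14, 2.58 and 7.32 CPM in the clone (log2 fold change -4.86 ± 0.30 (SE), adjusted p = 2.83e-06). Adamts2, which trims procollagen, fell from 13.5, 12.4 and 14.93 CPM to 0.208, 1.05 and 0.108 CPM (log2 fold change -4.85 ± 0.54 (SE), adjusted p = 0.000250). The parental cultures were far above the GRKO cultures for both proteases. Lox, which crosslinks collagen and elastin, rose from 346, 399.9 and 332 CPM to 672, 660.4 and 782 CPM (log2 fold change 0.97 ± 0.15 (SE), adjusted p = 0.00193), and Adam12, a membrane metalloprotease, from 11.2, 5.85 and 8.87 CPM to 18.3, 20.05 and 18.8 CPM (log2 fold change 1.14 ± 0.22 (SE), adjusted p = 0.00827). Tissue transglutaminase (Tgm2), another crosslinker, was lower (log2 fold change -0.72, adjusted p = 0.0162) and lost its call without GRKO culture 1 or 2 (highest adjusted p = 0.0831).

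Of 25 integrins and matrix receptors 23 were tested, with 2 higher and 4 lower (26.1% DEGs, median -0.07). Itga7, a laminin receptor chain, rose from 17.6, 23.5 and 21.3 CPM to 58.02, 53.7 and 53.4 CPM (log2 fold change 1.40 ± 0.14 (SE), adjusted p = 0.000130). Itgb3, a chain of the vitronectin receptor, fell from 19.8, 21.7 and 15.4 CPM to 5.04, 3.77 and 5.599 CPM (log2 fold change -1.98 ± 0.38 (SE), adjusted p = 0.00733). Neither pair of groups overlapped. Itgb4, the hemidesmosome chain, was near the floor in the clone (37, 30 and 10 counts in the parental cultures and 0, 4 and 1 counts in the clone, a parental to GRKO ratio of 18.6 (95% counting interval 7.64 to 58.9) with adjusted p = 0.0171) and lost its call without GRKO culture 1 or 3 or parental culture 1 (highest adjusted p = 0.0660). Galectin-1 (Lgals1), a lectin that binds matrix and T cells, was lower, 13411, 18979 and 12547 CPM in the parental cultures and 8874, 7356 and 9159 CPM in the clone (log2 fold change -0.82 ± 0.19 (SE), adjusted p = 0.0188), and lost its call without GRKO culture 1 or 2 (highest adjusted p = 0.0909). The count of this list moved from 6 to 2 without GRKO culture 1 and to 3 without GRKO culture 2 or 3 or parental culture 1. In the 4 matrix lists 9 genes were higher and 41 lower of 144 tested (34.7%, median -0.30). These were 8 and 37 without parental culture 2, and the count of DEGs was 33 without GRKO culture 1.

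Of the antigen presentation genes 6 were lower in the clone, and the light chain was not among them. Of 29 MHC class I genes 18 were tested, with 6 lower and 0 higher (33.3% DEGs, median -0.41). Nlrc5, the transactivator of class I genes, had 27, 38 and 26 counts in the parental cultures and 0, 0 and 0 counts in the clone and was at least 12.2-fold lower (adjusted p = 0.00320). Psmb8, an immunoproteasome subunit, had 88, 91 and 132 counts in the parental cultures and 1, 2 and 4 counts in the clone, a parental to GRKO ratio of 53.7 (95% counting interval 25.8 to 135) with adjusted p = 6.24e-05. Tap1, a chain of the peptide transporter, had 9.63, 14.1 and 6.58 CPM in the parental cultures and 2.03, 1.77 and 1.29 CPM in the clone. Tapbp (tapasin), which loads peptide on class I, had 328, 563 and 292 CPM in the parental cultures and 129, 79.3 and 109 CPM in the clone. Both lay apart between groups (log2 fold changes -2.57 and -1.90, adjusted p = 0.000465 and 0.00176). The heavy chain H2-K1 stood at 25.3, 11.8 and 26.6 CPM in the parental cultures and 4.16, 4.25 and 3.500 CPM in the clone (log2 fold change -2.42 ± 0.37 (SE), adjusted p = 0.00197), though reads of near-identical class I genes may be split or dropped in counting. B2m, the light chain, overlapped between groups, 1110.4, 872 and 1193 CPM in the parental cultures and 894, 907 and 1087 CPM in the clone, and did not pass (log2 fold change -0.14 ± 0.19 (SE), adjusted p = 0.671).

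Interferon-stimulated genes fell without an exception among the DEGs, 22 lower and 0 higher of 56 tested among 65 (39.3% DEGs, median -0.96). Ifitm3, a membrane protein that blocks viral entry, stood at 1810.3, 2248 and 1569 CPM in the parental cultures and 281, 262 and 296 CPM in the clone (log2 fold change -2.75 ± 0.16 (SE), adjusted p = 2.69e-06). Ifitm1, from the same cluster, stood at 87.2, 95.5 and 77.6 CPM in the parental cultures and 2.44, 3.72 and 4.68 CPM in the clone (log2 fold change -4.58 ± 0.25 (SE), adjusted p = 1.36e-06). Every parental culture exceeded every GRKO culture several-fold for both, with the caution that these paralogs may share reads. Ly6e, an interferon-induced surface protein on chromosome 15, fell from 408, 572 and 341 CPM to 154, 123 and 152 CPM (log2 fold change -1.62 ± 0.21 (SE), adjusted p = 0.000674). Oas3, a sensor of double-stranded RNA, had 15, 15 and 12 counts in the parental cultures and 0, 1 and 0 counts in the clone, a ratio of 50.8 (95% counting interval 8.63 to 2052) with adjusted p = 0.00720. The list's count moved from 22 to 11 without GRKO culture 3, to 12 without GRKO culture 2 or parental culture 1 and to 13 without GRKO culture 1.

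Most DEGs among the secreted and surface immune ligands were lower as well. Chemokines and cytokines had 8 lower and 0 higher of 27 tested among 60 (29.6% DEGs, median -0.63). Cxcl14, a chemokine of myeloid and dendritic cells, had 80, 50 and 78 counts in the parental cultures and 0, 0 and 0 counts in the clone and was at least 27.9-fold lower (adjusted p = 0.000748). Ccl5, which draws T cells, fell from 4.36, 3.45 and 3.64 CPM to 0.364, 0.382 and 0.377 CPM (log2 fold change -3.33 ± 0.46 (SE), adjusted p = 0.000966). This count moved from 8 to 4 without parental culture 1, to 5 without GRKO culture 1 or 2 or parental culture 2 and to 5 with the 2 groups fitted alone. Of 46 checkpoint ligands, death receptors and immune ligands, 30 were tested, with 3 higher and 11 lower (46.7% DEGs, median -0.44). Cd47, the signal that restrains phagocytes, fell (log2 fold change -0.84, adjusted p = 0.00423), as did the adhesion molecule Vcam1 (-1.82, adjusted p = 0.000390). Pvr, a ligand of TIGIT and DNAM-1, rose from 56.02, 54.6 and 41.1 CPM to 88.97, 81.2 and 91.1 CPM (log2 fold change 0.78 ± 0.15 (SE), adjusted p = 0.00646), and Cd24a, a ligand of Siglec receptors, from 1.82, 1.72 and 1.12 CPM to 8.83, 7.303 and 6.35 CPM (log2 fold change 2.27 ± 0.27 (SE), adjusted p = 0.000423). For each of these ligands the groups did not overlap. Cd274 (PD-L1) was near the floor, 2, 5 and 7 counts in the parental cultures and 1, 21 and 14 counts in the clone, and did not pass (log2 fold change 1.07 ± 1.08 (SE), adjusted p = 0.558).

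3 genes of prostaglandin synthesis were also read, of which Ptgs1 and Ptgs2 were chosen after their values were seen. Ptges, the inducible prostaglandin E synthase, had 291, 178 and 367 counts in the parental cultures and 0, 7 and 1 counts in the clone, a parental to GRKO ratio of 126 (95% counting interval 63.8 to 294) with adjusted p = 4.74e-05. Ptgs1, the constitutive cyclooxygenase, fell from 111, 126 and 124 CPM to 29.97, 32.9 and 37.6 CPM (log2 fold change -1.85 ± 0.18 (SE), adjusted p = 7.61e-05). Ptgs2, the inducible cyclooxygenase, was higher, 7.74, 5.85 and 5.82 CPM in the parental cultures and 11.5, 15.9 and 12.8 CPM in the clone (log2 fold change 1.05 ± 0.27 (SE), adjusted p = 0.0344). The groups were separate for all 3 genes, but Ptgs2 lost its call without GRKO culture 1, 2 or 3 or parental culture 1, 2 or 3 (highest adjusted p = 0.141). NF-κB feedback and complement genes had 2 lower and 0 higher of 24 tested among 35 (8.33% DEGs, against 8.22% of all genes tested, median -0.03). Bcl3, an atypical IκB protein, was 1 of them (10, 8 and 13 counts in the parental cultures and 0, 0 and 1 counts in the clone, ratio 37.5 (95% counting interval 6.24 to 1527), adjusted p = 0.0332), and lost its call without GRKO culture 1, 2 or 3 or parental culture 2 (highest adjusted p = 0.128). The other was C1ra, a complement protease (adjusted p = 0.0117), which was chosen after its values were seen. That count moved from 2 to 0 without GRKO culture 2 and to 1 without GRKO culture 1 or 3 or parental culture 1, 2 or 3. It was also 1 with genes of at least 1 CPM on average, with the 2 groups fitted alone or with the replicate number as a block.

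Lrrc32 (ENSMUSG00000090958, chromosome 7, 98489283 to 98502181) encodes GARP, which anchors latent TGF-β at the cell surface, and was lower in the clone without added GC. It stood at 24.2, 13.98 and 18.9 CPM in the parental cultures and 3.53, 1.098 and 2.91 CPM in the clone. The lowest parental culture was well above the highest GRKO culture (log2 fold change -2.92 ± 0.39 (SE), adjusted p = 0.000788). With GC it was also lower in GRKO cultures (log2 fold change -1.76, adjusted p = 0.0304). In control tumors, which also hold host cells, it did not pass (log2 fold change 0.05, adjusted p = 0.942). Of 54 genes for GARP, TGF-β ligands, receptors and targets, 50 were tested, with 1 higher and 7 lower (16.0% DEGs, against 8.22% of all genes tested, median -0.20). The ligand Tgfb2 fell from 21.2, 28.3 and 18.4 CPM to 10.96, 11.03 and 9.85 CPM (log2 fold change -1.09 ± 0.18 (SE), adjusted p = 0.00335), and Tgfb1 stood at 27.7, 46.3 and 21.2 CPM in the parental cultures and 19.01, 12.4 and 15.4 CPM in the clone (log2 fold change -1.02 ± 0.28 (SE), adjusted p = 0.0427). Tgfb1 lost its call without GRKO culture 1, 2 or 3 or parental culture 1 or 2 (highest adjusted p = 0.171). Fstl3, a secreted trap for activins, fell from 35.6, 46.4 and 29.9 CPM to 0.312, 0.382 and 0.538 CPM (log2 fold change -6.49 ± 0.28 (SE), adjusted p = 2.50e-07). Bmp2, a bone morphogenetic ligand, and Acvrl1, a type I receptor on chromosome 15, fell with log2 fold changes of -3.71 and -4.41 (adjusted p = 0.00111 and 0.00178). Follistatin (Fst), the other activin trap, was the higher gene (2, 3 and 0 counts in the parental cultures and 20, 38 and 25 counts in the clone), with a GRKO to parental ratio of 13.7 (95% counting interval 5.65 to 43.4) and adjusted p = 0.0135. It lost its call without GRKO culture 2 (highest adjusted p = 0.0552), and the list's count moved from 8 to 5 without GRKO culture 2.

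Over the 6 immune lists 4 genes were higher and 56 lower of 205 tested (29.3%, median -0.41). Without parental culture 2 these were 3 and 40. The count of DEGs was 37 without GRKO culture 2 and 38 without parental culture 1.

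**Figure D2:**
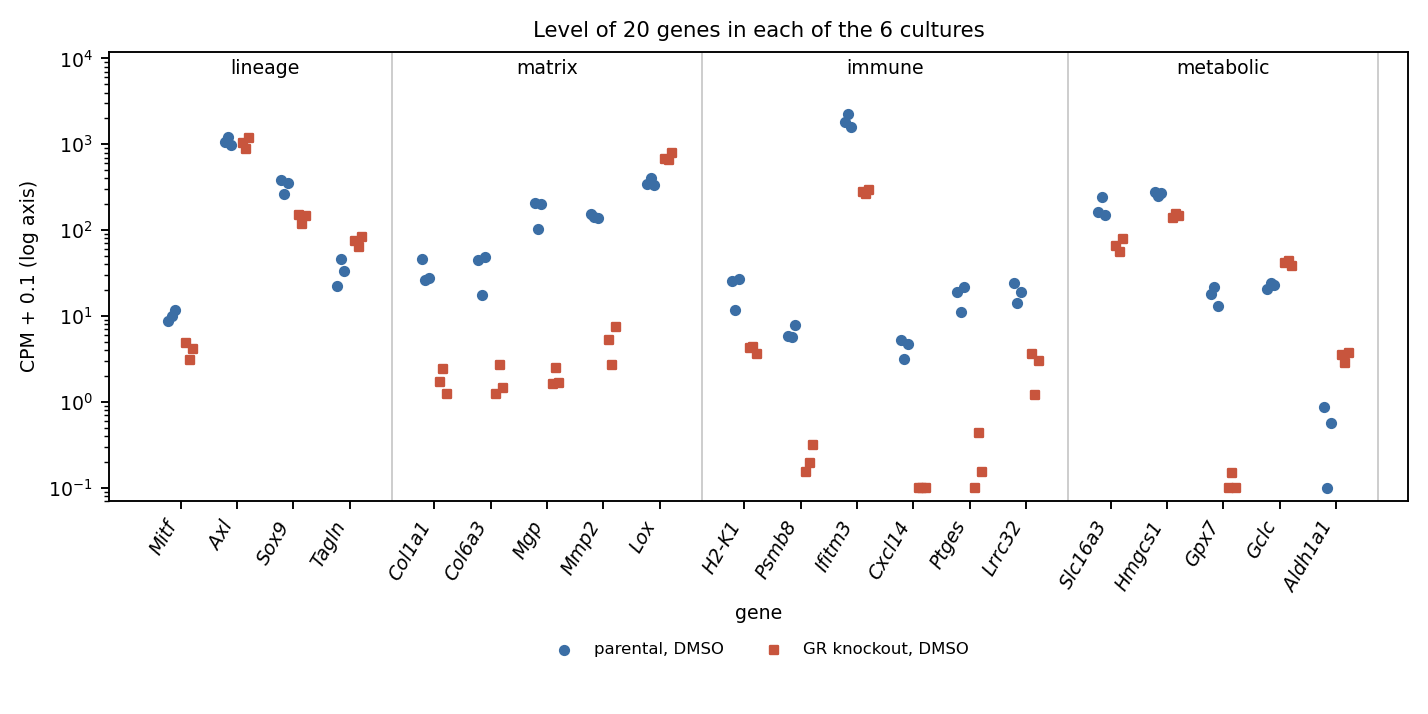
Points give the level of 20 genes in each of the 3 parental and 3 GRKO cultures with DMSO, as CPM plus 0.1 on a log axis, grouped as lineage, matrix, immune and metabolic genes. The groups overlap for Axl, while Mgp, Mmp2, Ptges and Gpx7 lie far lower in each GRKO culture and Lox and Aldh1a1 lie higher.

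Sterol synthesis was the metabolic list with the most DEGs at the 1.5-fold limit, 16 lower and 0 higher of 36 tested among 37 (44.4% DEGs, median -0.59). At a fold limit of 2 its count fell to 6, level with the fatty acid list and the glutathione and NRF2 list (6 each). Srebf2, the transcription factor that drives the pathway and lies on chromosome 15, fell from 115, 129 and 89.5 CPM to 65.6, 61.6 and 54.6 CPM (log2 fold change -0.87 ± 0.15 (SE), adjusted p = 0.00378). Hmgcs1, the synthase that opens the mevalonate route, stood at 280.3, 249 and 268 CPM in the parental cultures and 138, 153 and 145 CPM in the clone (log2 fold change -0.87 ± 0.11 (SE), adjusted p = 0.000469). Each GRKO culture was below each parental culture for both. Mvd, which makes isopentenyl pyrophosphate, and Sqle, the squalene epoxidase on chromosome 15, fell with log2 fold changes of -1.64 and -1.10 (adjusted p = 0.00677 and 0.000181). With GC the list had 4 lower and 0 higher of 36 tested (median -0.37). In control tumors it had 1 lower and 0 higher of 37 tested (median 0.18). With GC Sqle was lower (log2 fold change -0.69, adjusted p = 0.00755), while Srebf2, Hmgcs1 and Mvd did not pass (adjusted p = 0.121, 0.0550 and 0.761).

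Glycolysis and lactate genes had 5 lower and 0 higher of 34 tested among 42 (14.7% DEGs, against 8.22% of all genes tested, median -0.21). Slc16a3, the lactate exporter MCT4, stood at 163, 245 and 150.1 CPM in the parental cultures and 65.3, 56.3 and 79.8 CPM in the clone (log2 fold change -1.47 ± 0.21 (SE), adjusted p = 0.00116). Pfkp, a phosphofructokinase, fell from 129, 164 and 112 CPM to 70.2, 57.04 and 73.7 CPM (log2 fold change -1.01 ± 0.17 (SE), adjusted p = 0.00372). Eno2, the neuronal enolase, had 48, 87 and 63 counts in the parental cultures and 0, 0 and 0 counts in the clone and was at least 26.5-fold lower (adjusted p = 0.000876). GRKO cultures lay below parental cultures throughout for these 3 genes. Lactate dehydrogenase A (Ldha) overlapped between groups, 1457, 1846 and 1313 CPM in the parental cultures and 1579, 1646 and 1442 CPM in the clone, and did not pass (log2 fold change 0.02 ± 0.15 (SE), adjusted p = 0.962). The count moved from 5 to 3 without GRKO culture 1, to 8 without the low-count filter and to 9 with DESeq2.

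Fatty acid genes had 3 higher and 4 lower of 46 tested among 55 (15.2% DEGs, against 8.22% of all genes tested, median -0.22). Scd1, the desaturase that makes oleate, fell from 239, 204 and 213 CPM to 120.1, 109 and 92.5 CPM (log2 fold change -1.03 ± 0.14 (SE), adjusted p = 0.000748). Acot1, an acyl-CoA thioesterase, had 39, 89 and 63 counts in the parental cultures and 0, 0 and 0 counts in the clone and was at least 25.4-fold lower (adjusted p = 0.000990), though its near copy Acot2 may share reads. Fabp3, a fatty acid carrier, was higher at low counts (2, 10 and 4 counts in the parental cultures and 47, 31 and 36 counts in the clone, adjusted p = 0.0385) and lost its call without GRKO culture 1, 2 or 3 or parental culture 1 or 3 (highest adjusted p = 0.123). Fatty acid synthase (Fasn) was lower in each GRKO culture, 788, 746 and 681 CPM in the parental cultures and 496, 425 and 621 CPM in the clone, without passing (log2 fold change -0.52 ± 0.20 (SE), adjusted p = 0.137). The list's count moved from 7 to 3 without GRKO culture 2 or 3 and to 4 without GRKO culture 1 or parental culture 2 or 3. Amino acid and one-carbon genes had 1 higher and 3 lower of 50 tested among 55 (8.0% DEGs, against 8.22% of all genes tested, median -0.04). Ass1, the argininosuccinate synthase of arginine synthesis, fell from 11.3, 9.85 and 7.35 CPM to 2.701, 2.58 and 2.91 CPM (log2 fold change -1.79 ± 0.26 (SE), adjusted p = 0.00143). Phgdh, which opens serine synthesis, overlapped, 48.5, 9.42 and 57.6 CPM in the parental cultures and 68.1, 69.6 and 47.9 CPM in the clone, with parental culture 2 far below the other 2 (log2 fold change 0.68 ± 0.65 (SE), adjusted p = 0.533). That count moved from 4 to 2 without GRKO culture 2 or parental culture 2 and to 2 at a fold limit of 2.

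Respiratory genes had 1 higher and 2 lower of 53 tested among 57 (5.66% DEGs, against 8.22% of all genes tested, median 0.00). The count moved from 3 to 1 at a fold limit of 2 and to 5 with no fold limit. Idh3a, a subunit of isocitrate dehydrogenase, rose from 46.4, 54.6 and 52.4 CPM to 78.8, 109 and 83.2 CPM (log2 fold change 0.82 ± 0.15 (SE), adjusted p = 0.00646). Ckb, the brain creatine kinase, fell from 31.3, 24.1 and 28.7 CPM to 8.47, 6.83 and 6.19 CPM (log2 fold change -1.97 ± 0.21 (SE), adjusted p = 0.000181). No culture crossed between groups for either.

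Redox genes went both ways. Of 64 glutathione, NRF2 and metallothionein genes 52 were tested, with 3 higher and 6 lower (17.3% DEGs, median 0.09). Gpx7, a peroxidase of the endoplasmic reticulum, had 278, 354 and 223 counts in the parental cultures and 0, 1 and 0 counts in the clone, a parental to GRKO ratio of 1034 (95% counting interval 185 to 40868) with adjusted p = 1.30e-05. Extracellular superoxide dismutase (Sod3) fell from 6.31, 8.56 and 7.93 CPM to 0.416, 0.334 and 0.162 CPM (log2 fold change -4.61 ± 0.43 (SE), adjusted p = 6.32e-05). Gstm2, a glutathione transferase with close copies, fell from 13.7, 23.8 and 16.2 CPM to 0.416, 0.955 and 0.861 CPM (log2 fold change -4.57 ± 0.38 (SE), adjusted p = 3.12e-05). Parental cultures were the higher group for these 3 genes, with no overlap. Gclc, the limiting enzyme of glutathione synthesis, was the reverse, 20.8, 24.3 and 23.03 CPM in the parental cultures and 40.98, 43.3 and 38.4 CPM in the clone (log2 fold change 0.85 ± 0.12 (SE), adjusted p = 0.00126). Nqo1, a quinone reductase and NRF2 target, was higher (32.5, 23.8 and 39.1 CPM in the parental cultures and 58.1, 49.98 and 47.2 CPM in the clone, adjusted p = 0.0382), and lost its call without GRKO culture 1, 2 or 3 or parental culture 1 or 2 (highest adjusted p = 0.135).

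Retinoid and aldehyde dehydrogenase genes had 2 higher and 4 lower of 24 tested among 32 (25.0% DEGs, median -0.27). Crabp1, which binds retinoic acid in the cell, fell from 138, 186 and 134 CPM to 55.4, 50.4 and 72.9 CPM (log2 fold change -1.36 ± 0.21 (SE), adjusted p = 0.00200). Aldh3a1 fell with a log2 fold change of -3.61 (adjusted p = 0.000181). Aldh1a1, which oxidizes retinal, was the reverse at low levels, 0.781, 0 and 0.470 CPM in the parental cultures and 3.43, 2.77 and 3.61 CPM in the clone (log2 fold change 2.96 ± 0.58 (SE), adjusted p = 0.00844). The parental cultures stayed under 1 CPM for Aldh1a1 and the GRKO cultures lay above 2 CPM. Over the 7 metabolic lists 10 genes were higher and 40 lower of 295 tested (16.9%, median -0.16), and 8 and 32 without parental culture 2. At a fold limit of 2 there were 4 and 27.

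None of 36 proliferation genes was a DEG by edgeR (0 of 36 tested, median 0.03), with 9 at an unadjusted p under 0.05 and with 1 DEG by DESeq2, 1 without the low-count filter and 2 with no fold limit. Without parental culture 2, parental culture 3 or GRKO culture 3 there was 1 lower DEG. CDK inhibitors and p53 targets had 2 higher and 0 lower of 27 tested among 30 (7.41% DEGs, against 8.22% of all genes tested, median 0.17). Perp, a p53 target of cell junctions, had 6, 3 and 2 counts in the parental cultures and 69, 43 and 47 counts in the clone, a GRKO to parental ratio of 11.96 (95% counting interval 6.51 to 24.4) with adjusted p = 0.00761. The other was Gadd45b, a stress response gene (adjusted p = 0.0409), chosen after its values were seen. Their count moved from 2 to 1 without GRKO culture 1, 2 or 3 or parental culture 2 or 3 and to 4 with DESeq2.

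Markers of other cell types were checked in the same cultures, and their part in the results was not tested. In bulk RNA, fewer cells of a type and less RNA per cell cannot be told apart. Of 23 leukocyte markers, 3 were tested, with 1 lower and 0 higher (median 0.41, with 1 below 0). The other tested markers had log2 fold changes above 0 and did not pass. Cd3e, Cd3d, Cd4, Cd8a, Ms4a1, Nkg7, Emr1, S100a8, S100a9 and Tyrobp had 0 counts in all 6 libraries. The list summed to 282, 294 and 230.2 CPM in the parental cultures and 12.8, 15.3 and 12.5 CPM in the clone. In the parental cultures nearly all of it was Fcer1g, the shared gamma chain of Fc receptors, at 274, 292 and 221 CPM in the parental cultures and 6.34, 4.39 and 6.19 CPM in the clone (log2 fold change -5.54 ± 0.19 (SE), adjusted p = 6.54e-08). Of 16 fibroblast and muscle markers, 7 were tested and 4 were lower, namely Col1a1, Dcn, Col3a1 and Cd248. The list summed to 648, 650.3 and 551 CPM in the parental cultures and 272, 248 and 285 CPM in the clone, with Cd248 the most abundant and Dpt, Pi16, Ckm, Myh4 and Myod1 at 0 in all 6 libraries.

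Of 13 endothelial markers, 2 were tested and 1 was lower (median -0.25), with Tek, Cldn5, Robo4, Erg and Sox17 at 0 in all 6 libraries. The other tested marker had a log2 fold change above 0 and did not pass. That 1 was Egfl7, a secreted factor and the most abundant of the list, at 26.1, 23.9 and 22.2 CPM in the parental cultures and 10.6, 8.11 and 11.3 CPM in the clone (log2 fold change -1.26 ± 0.21 (SE), adjusted p = 0.00295). The endothelial list summed to 28.4, 26.4 and 24.4 CPM in the parental cultures and 12.6, 10.9 and 14.86 CPM in the clone. Keratinocyte markers had 1 tested of 14 and Schwann cell and neuron markers 5 of 14, with 0 DEGs by edgeR in either (0 and 2 genes at an unadjusted p under 0.05, 0 and 0 by DESeq2, and 1 Schwann cell and neuron marker with no fold limit or without GRKO culture 1).

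The genes with the largest fitted log2 fold changes included 5 in each direction that stood at 5 CPM or more in the higher group. For genes at 0 counts this order rests on the fit. The bounds given here do not rank them against genes such as Gpx7, Col11a1 and Ptges. Gpr97 (ENSMUSG00000060470, chromosome 8, 95017692 to 95045250), an adhesion G-protein-coupled receptor, had 457, 491 and 480 counts in the parental cultures and 0, 0 and 0 counts in the clone. It was at least 191-fold lower (adjusted p = 6.17e-06), with parental cultures close to each other. Igfbp5, an IGF-binding protein, had 232, 182 and 240 counts in the parental cultures and 0, 0 and 0 counts in the clone (at least 87.7-fold lower, adjusted p = 7.61e-05). Slpi, a secreted inhibitor of leukocyte proteases, was at least 41.5-fold lower (141, 66 and 100 counts in the parental cultures and 0, 0 and 0 counts in the clone, adjusted p = 0.000531). Dkk3, of the dickkopf family, had 350, 450 and 373 counts in the parental cultures and 0, 1 and 0 counts in the clone, a ratio of 1418 (95% counting interval 254 to 56051) with adjusted p = 1.06e-05. Together with Thbs2, these were silent or nearly so in each GRKO culture. Among higher genes, Eya1, a transcriptional coactivator in organ development, had 0, 5 and 2 counts in the parental cultures and 117, 107 and 108 counts in the clone, a GRKO to parental ratio of 39.2 (95% counting interval 18.8 to 98.4) with adjusted p = 0.000788. Ptprd, a receptor tyrosine phosphatase, had 3, 0 and 4 counts in the parental cultures and 87, 126 and 119 counts in the clone, a GRKO to parental ratio of 39.2 (95% counting interval 18.8 to 98.4) with adjusted p = 0.000308.

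Lrp2 (megalin), an endocytic receptor, rose from 0.716, 0.308 and 0.588 CPM to 6.23, 11.4 and 4.199 CPM (log2 fold change 3.75 ± 0.57 (SE), adjusted p = 0.00176). Tbx20, a T-box factor of heart development, rose from 0.260, 0.246 and 0.823 CPM to 4.99, 6.11 and 5.76 CPM (log2 fold change 3.63 ± 0.46 (SE), adjusted p = 0.000623). The predicted gene Gm11033 had 10, 1 and 0 counts in the parental cultures and 141, 138 and 115 counts in the clone, a GRKO to parental ratio of 29.6 (95% counting interval 16.4 to 59.8) with adjusted p = 0.00187. No parental culture reached 1 CPM for these 5 higher genes, and every GRKO culture lay above 4 CPM.

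Lower genes gathered on chromosome 15, a pattern looked for after the values were seen. On chromosome 15, 311 genes had a mean of at least 10 CPM, and 252 of them had a log2 fold change below 0 (median -0.34). Of these 311 genes, 1 was higher and 62 were lower (19.9%). The other 18 autosomes that were compared had medians from -0.06 to 0.14 and 1.40% to 5.74% lower genes. Along chromosome 15 each of 6 windows of 20 Mb had a negative median, from -0.19 to -0.39. The median deviation of the chromosome from the mean of all cultures was 0.18, 0.23 and 0.17 in the parental cultures and -0.17, -0.21 and -0.14 in the clone. Thus each GRKO culture lay below each parental one. Genes of the chromosome such as Fbln1, Ly6e, Acvrl1, Sqle, Srebf2 and Lgals1 take part in the family counts. Without chromosome 15 the DEGs numbered 19 in lineage, 48 in matrix, 56 in immune and 47 in metabolic lists. DNA copy number was not analysed here.

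**Figure D3:**
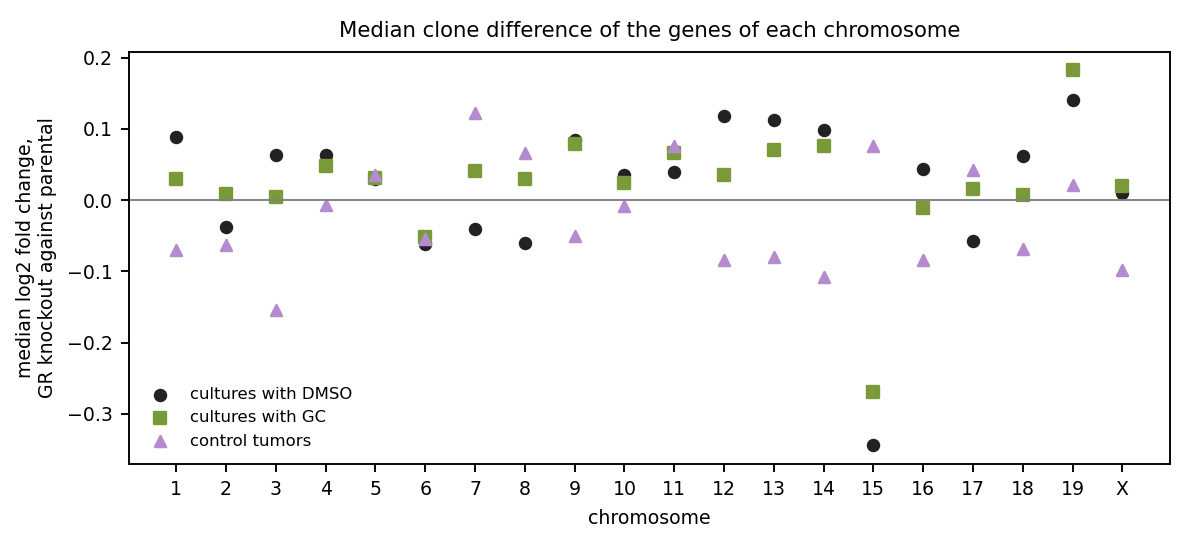
Points give the median log2 fold change of GRKO over parental per chromosome for genes with a mean of at least 10 CPM, in cultures with DMSO, cultures with GC and control tumors. Chromosome 15 is at -0.34 and -0.27 in the cultures and at 0.08 in the tumors, while the other autosomes lie between -0.15 and 0.18.

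The clone's profile in DMSO was set beside GRKO and parental cells in other samples. The comparisons with GC and in tumors shared no library with it, though all 11 cultures shared 1 fit of the spread. With GC, 695 of 12525 genes (5.55%) were DEGs between GRKO and parental cultures, 221 higher and 474 lower, and 230 (62 and 168) with the 2 groups fitted alone. Of the 1030 DMSO DEGs, 955 (92.7%) had the same sign there, and 436 were DEGs of the same sign, which is 42.3% of the DMSO list and 62.7% of the GC list. The median log2 fold change with GC was 0.77 for the DMSO DEGs that were higher and -1.10 for those that were lower. The GC comparison had 2 parental cultures, and its count was 322 without parental GC culture 1, 332 without parental GC culture 2 and 447 without GRKO GC culture 2. On chromosome 15 the median with GC was -0.27.

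The clone difference itself changed with GC in 37 genes (0.295% of 12525), 9 toward higher and 28 toward lower (a difference that uses the 6 DMSO libraries again). At an unadjusted p under 0.05 there were 1075 genes. Aldh1a1 was higher in the clone in DMSO and lower with GC (log2 fold change -2.85), a difference of -5.81 (adjusted p = 0.00585). Adam12, Mt2 and Gclc turned in the same way, with differences of -2.79, -3.70 and -1.61 (adjusted p = 0.00339, 3.48e-05 and 0.00275). Lox and Cd24a, higher in the clone in DMSO, did not pass with GC (log2 fold changes -0.36 and 0.28, adjusted p = 0.285 and 0.699). Itga7 was higher with GC too (log2 fold change 2.63, adjusted p = 4.72e-06). Ctla2a and Ly6a, a stem cell antigen on chromosome 15 with close paralogs, were lower in both settings and further apart with GC (differences -4.29 and -1.45, adjusted p = 0.00275 and 0.00542). The textbook glucocorticoid-induced list had 0 higher and 13 lower with GC (median -1.45), against 1 and 4 in DMSO. For the study-chosen list these were 0 and 19 (median -2.73), again not independent evidence. DESeq2 gave 128 such genes (53 toward higher and 75 toward lower), and without the low-count filter there were 64 (18 and 46). The count of 37 fell to 23 without GRKO culture 1, GRKO culture 2 or parental culture 1, 22 without GRKO GC culture 2, 19 without parental GC culture 1 and 17 without parental GC culture 2. For Ly6a the difference lost its call without parental GC culture 2 (adjusted p = 0.0501).

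Control tumors grown from parental and GRKO cells shared few DEGs with the cultures. There 358 of 15919 genes (2.25%) were DEGs, 201 higher and 157 lower in GRKO tumors. At a fold limit of 2 there were 238 (132 and 106), with DESeq2 1004 (624 and 380) and with the 2 groups fitted alone 159 (109 and 50). Of 1017 DMSO DEGs tested in tumors, 493 (48.5%) had the same sign, and 43 were DEGs of the same sign, 4.23% of the DMSO list and 12.0% of the tumor list. The median log2 fold change in tumors was 0.06 for genes higher and 0.04 for genes lower in DMSO. Of 65 interferon-stimulated genes tested in tumors, 8 were higher and 1 lower in GRKO tumors (median 0.69), against 0 and 22 in DMSO. Of 34 collagen chains tested there, 0 were higher and 4 lower (median -0.10). Over the lineage, matrix, immune and metabolic lists together, 32 were higher and 25 lower of 894 tested (median 0.04). Of the named DEGs 9 were DEGs of the same sign in tumors. Lower in both settings were Mgp (tumor log2 fold change -2.75, adjusted p = 0.000236), Cdh11 (-2.12, adjusted p = 0.00212), Ccdc3 (-2.38, adjusted p = 0.00265), Dkk3 (-1.15, adjusted p = 0.00265), Col3a1 (-0.997, adjusted p = 0.0252) and Col11a1 (-4.14, adjusted p = 0.0191). Higher in both were Eya1 (2.73, adjusted p = 0.0191), Tagln (1.95, adjusted p = 0.0331) and Gm11033 (adjusted p = 0.0296). Another 8 were lower in the cultured clone and higher in GRKO tumors, namely Gfra2 (2.15, adjusted p = 0.000236), Thbs2 (1.24, adjusted p = 0.00610), Itgb3 (1.29, adjusted p = 0.0123), Myl9 (1.53, adjusted p = 0.0252), Gstm2 (1.08, adjusted p = 0.0268), Crabp1 (1.34, adjusted p = 0.0288), Ifitm3 (0.91, adjusted p = 0.0325) and Egfl7 (1.08, adjusted p = 0.0470). Tumors also hold host cells, whose RNA was counted with that of the tumor cells, and the difference between tumors and cultures was not tested. GRKO control tumor 4 stood apart, with a mean chi-square per gene of 234 to 411 against the other GRKO control tumors and 68.8 to 146 among those. Its 20 most abundant genes took 10.99% of counts, against 17.7% to 26.4% in the other GRKO control tumors and 10.5% to 15.8% in the parental ones. Those other 4 GRKO tumors also had lower TMM factors (0.753 to 0.919, against 1.01 to 1.10 in parental tumors and GRKO control tumor 4) and fewer genes detected (13442 to 15150, against 15578 to 16980). Mitochondrial genes took 0.587% to 1.15% of counts in the 5 GRKO tumors and 1.25% to 2.47% in the parental ones. The part of these library differences in the tumor results was not tested. The tumor count rested on single libraries, with 1762 DEGs without GRKO control tumor 4 and 61 to 213 without each of the other 9 control tumors in turn.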

How the data were processed

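The authors deposited a table of raw counts of 3′ tags per gene, made with Trim Galore 0.6.5, STAR 2.6.1d and featureCounts on Ensembl 75 genes. It held 39179 genes, and positions were taken from GENCODE M21 by gene identifier. Paralogs could share or lose reads, and the strand setting of the counting was not stated. The 11 cultures were fitted together with edgeR 4.0.16 (TMM, quasi-likelihood F-test) in R 4.3.3 on genes with at least 0.5 CPM in 3 samples, and the tumors apart. P-values were adjusted by Benjamini-Hochberg over all genes tested. The exact permutation test was two-sided, on mean log2(CPM + 1). Folds against cultures all at 0 used a floor of 3 counts per library. Summaries used Python 3.11.15 with numpy 2.4.6, pandas 2.3.3 and scipy 1.17.1. The calls were tested on simulated data, but the outcome is not given here and no result above rests on it.

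Alternatives were DESeq2 1.42.0, DESeq2 size factors in the edgeR fit, dropping the low-count filter or using a mean of at least 1 CPM, fold limits of 2 or none, the 2 groups alone, a replicate block, a pseudocount of 0.1 and each replicate left out. Family counts without chromosome 15 and the alternatives for the difference between GC and DMSO were chosen after seeing the data. Members and lists were chosen with earlier results of these data known. Named genes were Nr3c1 and genes the study names for the cultures, the DEG of each list with the largest change in each direction among those with separate groups, 20 anchor genes whatever their result, and the 5 largest changes in each direction at 5 CPM or more, of which 6 are not reported here. To these, 52 genes were added after their values were seen, among them most further collagen, interferon, sterol and prostaglandin examples. Tumors treated with GC were not used here.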

Additional observations from a re-analysis of the deposited data

Results flagged for a closer look

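The total counts, the mitochondrial share and the TMM factor were looked at in both groups of control tumors, and 1 library lay far from the rest in 1 of these. Mitochondrial genes took 2.47% of counts in parental control tumor 2 against 1.25% to 1.46% in the other 4 parental control tumors. How often chance alone would mark a group in this way was not measured, and this library is not part of the culture comparison. GRKO control tumor 4 did not meet this rule, though its counts differed from those of its group.

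The clone difference depended on GC in 14 of the named genes by a test of the difference itself (edgeR, GC minus DMSO on the log2 scale). For the classical glucocorticoid targets these were -3.14 for Tsc22d3, -3.004 for Per1, -1.99 for Mt1, -3.70 for Mt2 and -3.64 for Rgs2. For matrix genes they were -1.33 for Lox, -2.79 for Adam12, -1.33 for Tgm2 and 1.23 for Itga7. For metabolic and other genes they were -1.61 for Gclc, -5.81 for Aldh1a1, 1.85 for Crabp1, -4.29 for Ctla2a and -1.45 for Ly6a. Itga7, Lox, Tgm2 and Crabp1 lost this call in 10, 8, 9 and 9 of 11 fits that left out 1 culture (highest adjusted p = 0.286, 0.228, 0.258 and 0.278). Mt1 and Ly6a lost it without parental GC culture 2 alone (adjusted p = 0.0599 and 0.0501).

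In 8 named DEGs every GRKO culture with DMSO lay below every parental one while every GRKO control tumor lay above every parental control tumor, and the difference was not tested. They were 8 of 81 named DEGs lower in DMSO, many of them chosen after their values were seen, and 7 of the 81 were lower in every GRKO control tumor. Over all 753 lower DEGs tested in tumors, 30 (3.98%) were higher and 32 (4.25%) lower in every GRKO control tumor, against 1.98% higher and 2.22% lower over all 12278 genes tested in both settings. Over those 12278 genes, 76 (0.619%) were lower in every GRKO culture and higher in every GRKO control tumor. Chance gives 0.397% in each direction for 5 against 5 tumors. Named genes that changed sign with overlapping tumors are not counted. The tumor log2 fold changes were 2.15 for Gfra2, 1.24 for Thbs2, 1.08 for Egfl7, 1.53 for Myl9, 1.29 for Itgb3, 0.91 for Ifitm3, 0.54 for Pfkp and 1.08 for Gstm2. Pfkp did not pass in tumors (adjusted p = 0.177).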

How the results depend on the processing

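The DMSO comparison was within 1.5 times of 1030 DEGs with DESeq2 (1424), other size factors (1021), either other low-count filter (915 and 1154), a fold limit of 2 (690) or none (1143), and the 2 groups fitted alone (944). With a culture left out it ranged from 594 to 916. Lineage counts ranged from 15 to 19, matrix from 33 to 46, immune from 37 to 50 and metabolic from 37 to 47 with a culture left out. A fold limit of 2 gave 31 metabolic DEGs. The GC comparison fell to 230 with its groups fitted alone and ranged from 322 to 842. The tumor comparison gave 238 at a fold limit of 2, 1004 with DESeq2 and 159 with its groups fitted alone, and ranged from 61 to 1762. For the difference between GC and DMSO, chosen as results to vary after seeing the data, DESeq2 gave 128 genes and no low-count filter gave 64, and the range was 17 to 43. A cause was not tested for any of these changes.

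With the replicate number as a paired replicate block, the comparisons gave 829, 538, 363 and 27 genes. Same-numbered parental and GRKO samples had r = -0.03, -0.42 and -0.34 in DMSO, 0.62 and 0.24 with GC and -0.07 to 0.27 in control tumors, across genes, which are not independent replicates. In none of these comparisons did every sample correlate best with its own number, and the labels do not say whether the numbers pair samples. Of 1691 fits of 122 named genes, 1594 kept their side of the limits, 94 lost the call, 3 gained it and 0 reversed. Of 252 fits of 14 differences, 211 kept their side and 41 lost it. Of 122 levels, 52 moved by over 1 SD with a pseudocount of 0.1 and 0 reversed. Of 434 counts per list, 363 were within 1.5 times. A lone culture left in an arm was assumed to vary like the other groups.

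Depth limits the genes at 0 in the clone to bounds, and a single clone limits what the groups can separate.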
